A study of Mus musculus with 14 samples.

Results

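Ribosome biogenesis is described here through 56 named genes that act from the transcription of ribosomal RNA (rRNA) by RNA polymerase I to the maturation of the 2 ribosomal subunits. A gene was measured where the array had a probe set annotated with that gene symbol alone, and the brightest such probe set over all 14 arrays stood for it. This held for 53 of the 56 genes, among 22180 genes measured in all. Fbl, Tsr1 and Mrto4 shared their probe sets with other genes and are not analysed here. The RNA came from the liver of C57BL/6J males, an inbred strain of laboratory mouse, and was measured on Affymetrix whole-transcript arrays. One group of 7 mice (numbered 1, 2, 3, 5, 6, 10 and 13) had been deprived of sleep, for 6 h according to the study's title, and the other 7 (4, 7, 8, 9, 11, 12 and 14) were controls. The study tried 3 ways of disturbing sleep (changing cages, a platform in water, and handling the mice gently), and which was used for these livers, like their age, feeding and hour of collection, was not given in the sources used here. Each numbered sample is taken as 1 mouse, which the labels do not state, so that p-values measure the spread between these samples.

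A ribosome is built in the nucleolus. RNA polymerase I makes a long precursor rRNA, small nucleolar ribonucleoproteins (snoRNPs) modify its nucleotides, a large particle called the small subunit processome folds and cuts it, and separate sets of factors carry the precursors of the small and large subunits to the cytoplasm. Cells raise this costly output when growth signals such as MYC and mTORC1 are active. In mouse liver it is known to vary over the day with feeding and the circadian clock.

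All values are log2 expression levels, in which a difference of 1 is a doubling, and differences are sleep-deprived minus control with the moderated standard error (SE) of limma. A gene was called changed at an adjusted p under 0.05 over all 22180 genes. The medians of the arrays lay between 3.443 and 3.491, and any pair of arrays correlated at 0.984 to 0.9903. The mean signals of the members' probe sets spanned 4.21 to 9.30, and all 53 lay above the median gene of the array, at 3.99, although signals of different probe sets do not compare the abundance of genes. Markers of hepatocytes had a median level of 12.5.

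Among the 53 genes 18 rose after sleep deprivation and 0 fell (limma, adjusted p under 0.05). Of all genes on the array 3.88% rose and 4.62% fell, 8.5% in either direction, and among the genes brighter than the median gene 7.33% rose and 8.71% fell. Rises of the members were modest, between 1.19-fold (Polr1a) and 1.53-fold (Rrp12). The difference was above 0 in 46 of the 53, whereas it was above 0 in 48.4% of all genes. Its median was 0.20 over the members and -0.0048 over all genes. Without adjustment 29 members were higher and 0 lower at p under 0.05, where 8.97% and 10.4% of all genes were. Of the 11090 genes brighter than the median gene, 1664 were higher and 1896 lower by that measure. In 8 members every sleep-deprived mouse was above every control, as happened in 1.34% of all genes and in 287 of the 11090 brighter ones. In bulk tissue a change in the number of cells of a type and a change of RNA per cell cannot be told apart.

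**Figure D1:**
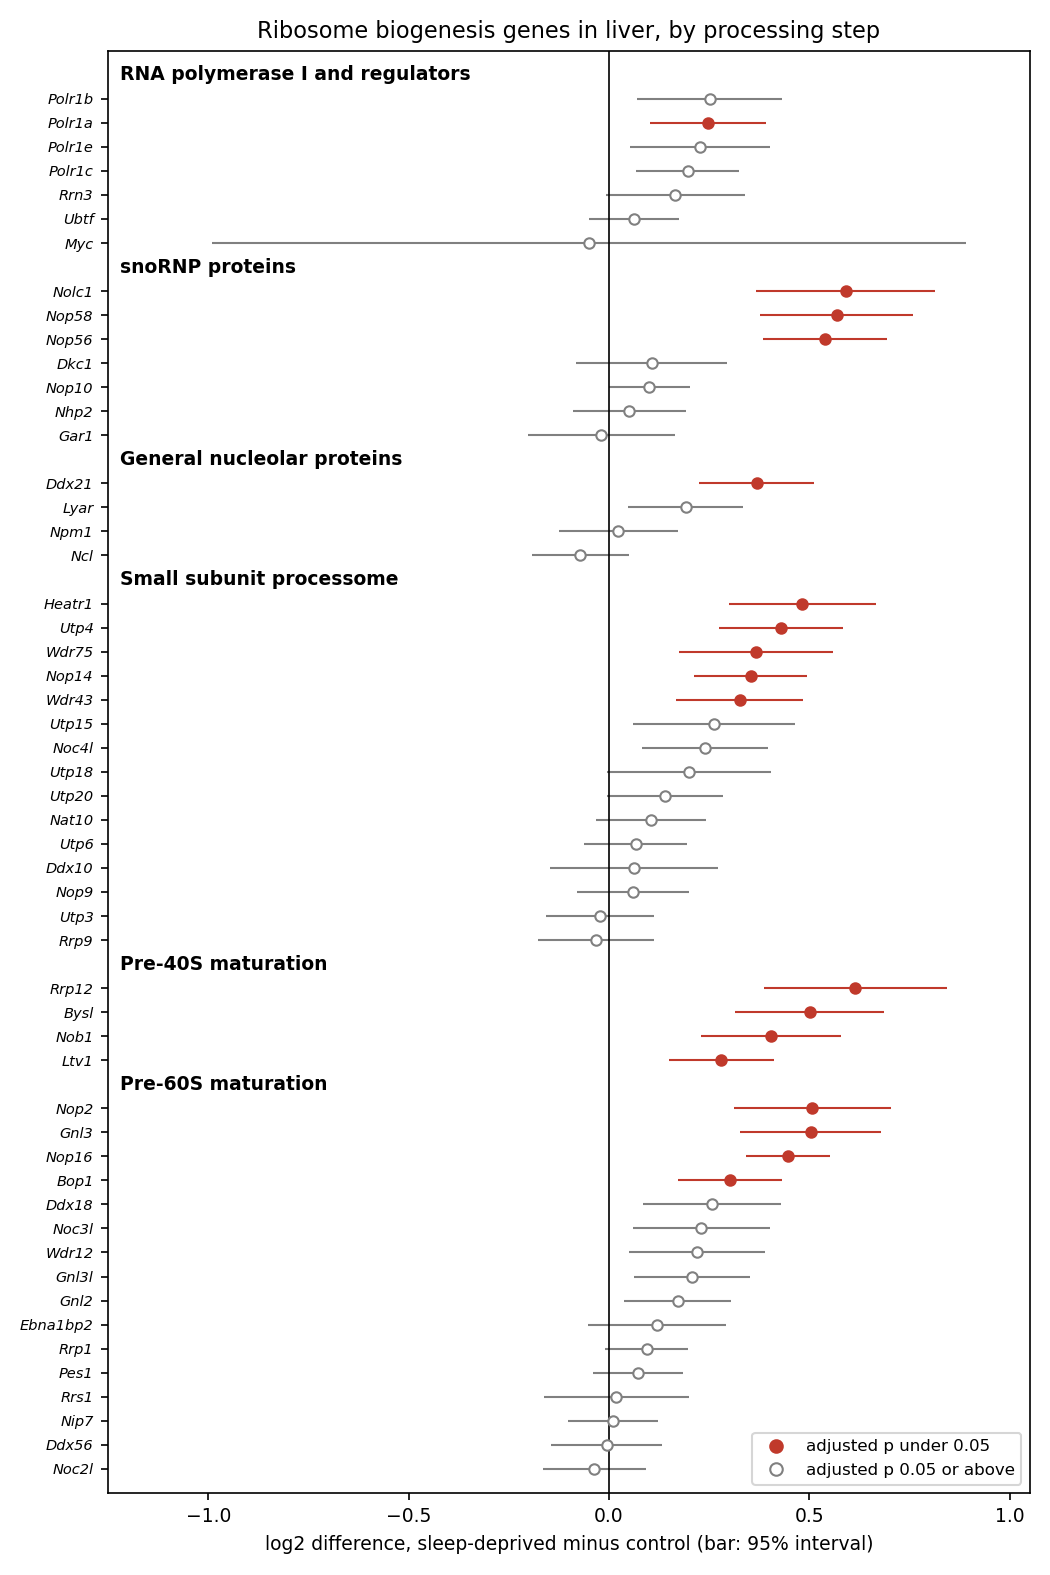
Log2 difference (sleep-deprived minus control, 7 mice each) of the 53 measured members by processing step, with its 95% interval. Filled points mark the 18 members with an adjusted p under 0.05, which all lie to the right of 0, and Myc has by far the widest interval.

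Transcripts of RNA polymerase I subunits and regulators showed small differences that mostly missed the threshold. Of the 7 genes grouped here with RNA polymerase I and its regulators, Myc included, 1 rose, Polr1a, the largest subunit (probe set 17459550). Its level was 6.64, 6.77 and 7.03 (lowest, median, highest) in sleep-deprived mice and 6.35, 6.59 and 6.69 in controls. In 6 of the 7 sleep-deprived mice it stood above the highest control, and the difference was 0.25 ± 0.069 (limma, adjusted p = 0.029). This call was lost without control mouse 4 or 12 or sleep-deprived mouse 6 or 13, when the adjusted p reached 0.0698. The other subunits measured had differences close to that of Polr1a. The second large subunit Polr1b (probe set 17376096) was at 5.88, 6.17 and 6.42 in sleep-deprived mice and at 5.74, 5.92 and 6.12 in controls, with a difference of 0.25 ± 0.087 (limma, adjusted p = 0.0844). Polr1c, which RNA polymerase III also contains (probe set 17345335), was at 6.18, 6.32 and 6.47 in sleep-deprived mice and at 5.99, 6.07 and 6.22 in controls, with a difference of 0.20 ± 0.061 (limma, adjusted p = 0.0526). The subunit gene Polr1e differed by 0.23 ± 0.084 (limma, adjusted p = 0.11). The groups overlapped in each of these subunits.

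The initiation factors of RNA polymerase I did not pass. Rrn3, which brings the polymerase to the promoter and is a target of growth signalling (probe set 17323061), was at 6.79, 6.93 and 7.30 in sleep-deprived mice and at 6.44, 6.88 and 6.92 in controls. Sleep-deprived mouse 2 stood well above the rest of its group, whose next value was 6.98. The difference of 0.17 had a 95% interval from -0.0075 to 0.34 (limma, adjusted p = 0.287). Ubtf, the architectural factor of rRNA genes (probe set 17270134), was at 7.33, 7.56 and 7.66 in sleep-deprived mice and at 7.39, 7.47 and 7.56 in controls. The 95% interval of its difference, -0.051 to 0.17, lay below the fitted rise of each called member, the smallest being 0.25 (Polr1a). Intervals of some called members overlapped it, such as 0.10 to 0.39 for Polr1a. Whether Ubtf changed less than the called members was not tested.

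Myc, the transcription factor that induces many genes of this pathway (probe set 17311846), had nearly the same mean in the groups and a very wide spread between mice. It stood at 6.01, 7.16 and 8.41 in sleep-deprived mice and at 5.29, 7.82 and 8.31 in controls. Controls 11 and 14, at 5.29 and 5.49, lay well below the other 5, which were at 6.89 or above. The mean was 7.12 ± 0.74 in sleep-deprived mice and 7.17 ± 1.31 in controls (SD, n = 7 each), and the difference of -0.049 had a 95% interval from -0.99 to 0.89 (limma, adjusted p = 0.973). Pooled over the groups its SD was 1.06, against 0.065 to 0.23 for the other members, and 6 of all 22180 genes, Myc included, had one at least as large. The order of the mice in Myc was not their order in the other members. Sleep-deprived mouse 3 had the highest Myc of its group and the lowest mean over the other 52 members, and mice 2 and 13 had its lowest Myc levels and its highest means. Among controls, mice 11 and 14 had the lowest Myc, and the means of the other members in these mice were among the 3 highest of the group. Other mice ran otherwise. Control mouse 7, with Myc at 8.14, had the highest mean of the controls (-0.053), and sleep-deprived mouse 6, with Myc at 7.35, had a mean of 0.15. The relation of Myc to the other members was not tested.

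**Figure D2:**
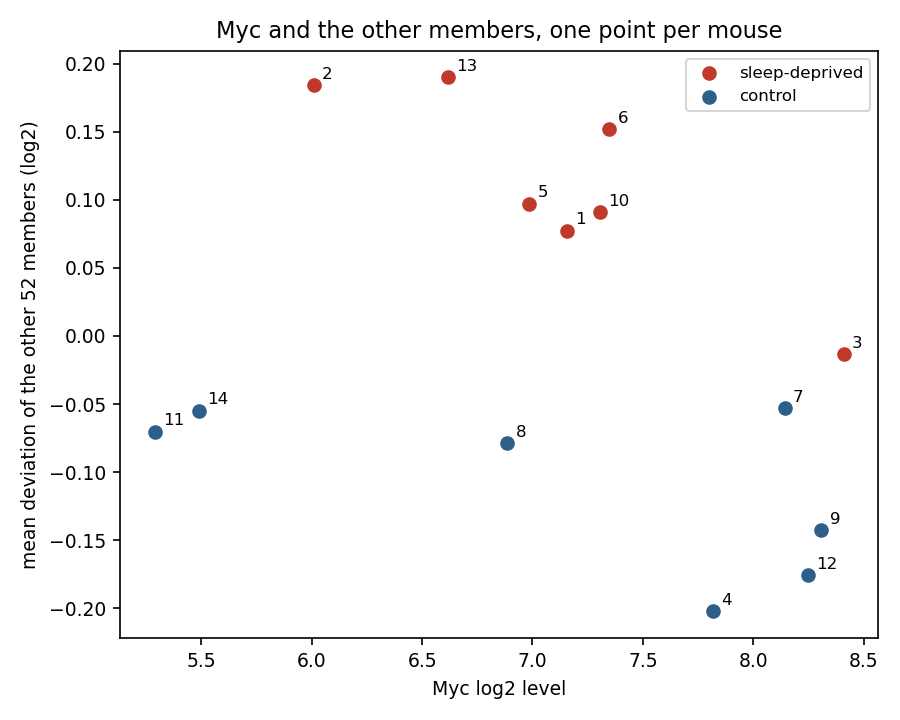
Myc log2 level (horizontal) and mean deviation of the other 52 members from their means over all mice (vertical, log2), 1 point per mouse with its number. Every sleep-deprived mouse lies above every control on the vertical axis, and the groups overlap along the Myc axis.

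Among 7 measured genes of snoRNP proteins 3 rose and 0 fell. Box C/D snoRNPs methylate rRNA, and the genes of their scaffold proteins Nop56 and Nop58 both rose, Nop56 in its brightest probe set only. Nop58 (probe set 17213295) was at 6.94, 7.22 and 7.50 in sleep-deprived mice and at 6.35, 6.58 and 6.94 in controls, without overlap. Its difference was 0.57 ± 0.092, or 1.48-fold (limma, adjusted p = 0.000369). Nop56 (probe set 17376252) was at 7.07, 7.28 and 7.55 in sleep-deprived mice and at 6.53, 6.70 and 6.92 in controls, again without overlap, and differed by 0.54 ± 0.074 (limma, adjusted p = 7.43e-05). Its 2 dimmer probe sets showed differences of 0.034 ± 0.17 and 0.089 ± 0.086, and the mean of the 3 probe sets did not pass (limma, adjusted p = 0.0938). The gene holds snoRNA genes in its introns, and which of its exons or introns a probe set reads was not given in the sources used here. Nolc1, a nucleolar chaperone of snoRNPs (probe set 17359902), was at 7.06, 7.27 and 7.45 in sleep-deprived mice and at 6.37, 6.65 and 7.09 in controls. Only control mouse 11, at 7.09, reached the range of the sleep-deprived group, and the difference was 0.59 ± 0.11 (limma, adjusted p = 0.00112).

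Box H/ACA snoRNPs convert uridine to pseudouridine, and none of their 4 proteins passed. The pseudouridine synthase Dkc1 was at a median of 5.56 in sleep-deprived mice and 5.61 in controls, with a difference of 0.11 (95% interval -0.082 to 0.30; limma, adjusted p = 0.608). Intervals of the others were -0.00061 to 0.20 for Nop10, -0.089 to 0.19 for Nhp2 and -0.20 to 0.16 for Gar1, so that each excluded the rises fitted for Nop56 and Nop58. The difference in change between the classes was not tested.

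Of 4 genes of general nucleolar proteins 1 rose and 0 fell. Ddx21, an RNA helicase that binds rRNA genes and snoRNAs (probe set 17241436), was at 7.08, 7.23 and 7.50 in sleep-deprived mice and at 6.78, 6.91 and 7.05 in controls. The groups stood apart and the difference was 0.37 ± 0.069 (limma, adjusted p = 0.00144). In its dimmer probe set the difference was 0.32 ± 0.14 and did not pass (limma over all probe sets, adjusted p = 0.204). Lyar, a nucleolar protein of rRNA processing (probe set 17437072), was at 5.38, 5.49 and 5.69 in sleep-deprived mice and at 5.20, 5.27 and 5.45 in controls, and its difference of 0.19 ± 0.069 did not pass (limma, adjusted p = 0.1). Ncl and Npm1 encode nucleolin and nucleophosmin, abundant proteins of the nucleolus, and neither passed. Ncl (probe set 17225153) was at 7.86, 8.03 and 8.13 in sleep-deprived mice and at 7.92, 8.05 and 8.26 in controls. Its difference of -0.071 had a 95% interval from -0.19 to 0.049 (limma, adjusted p = 0.582), and that of Npm1 one from -0.13 to 0.17 (adjusted p = 0.918).

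**Figure D3:**
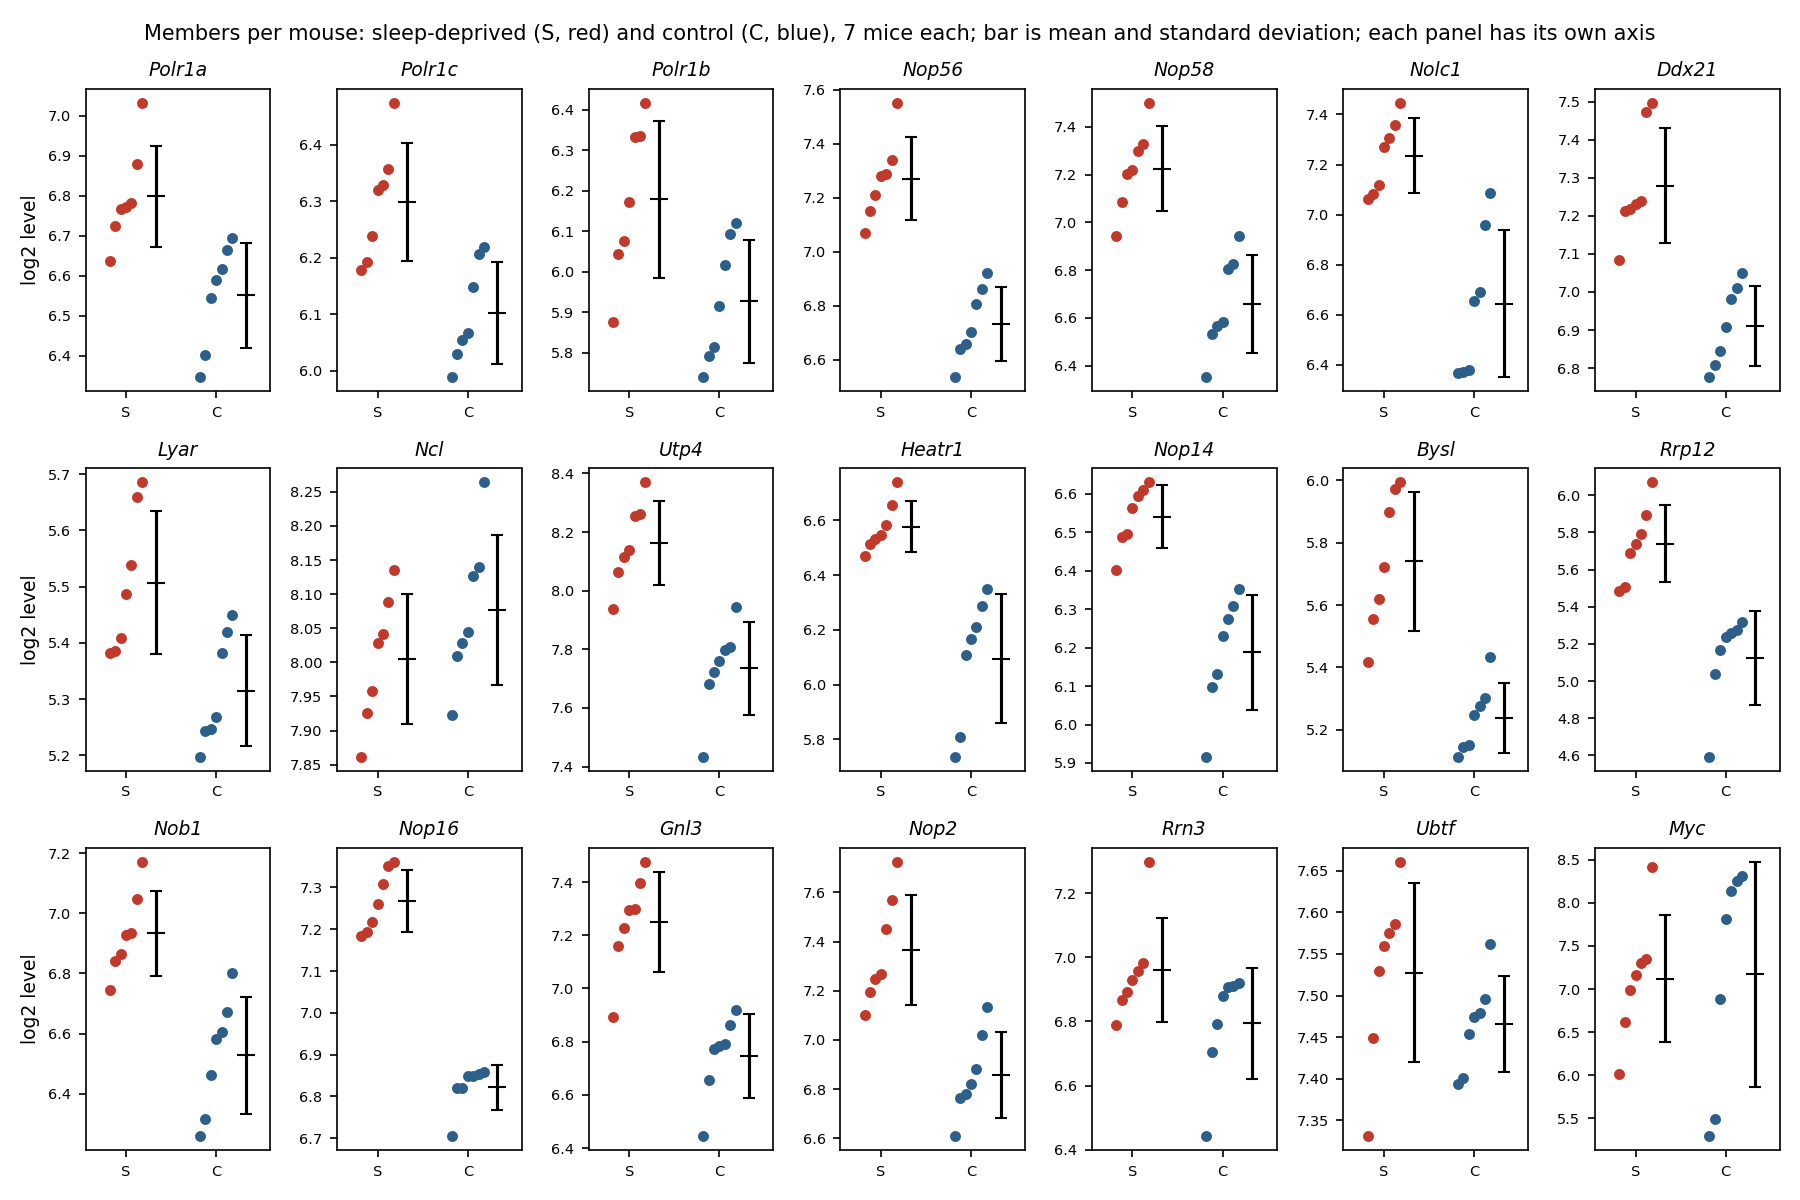
Log2 level in each mouse for 21 members, with sleep-deprived mice (S, red) left of controls (C, blue), points sorted within a group, and the mean and standard deviation beside them. The groups stand apart in Nop56, Nop58, Ddx21, Heatr1, Nop14, Rrp12 and Nop16, and overlap widely in Ncl, Ubtf and Myc.

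In the small subunit processome 5 of 15 genes rose and 0 fell. Utp4, a subunit that binds the start of the precursor rRNA (probe set 17505197), was at 7.94, 8.14 and 8.37 in sleep-deprived mice and at 7.43, 7.76 and 7.94 in controls. Its difference was 0.43 ± 0.074 (limma, adjusted p = 0.000696), with sleep-deprived mouse 3 just inside the control range. Heatr1, needed for rRNA transcription and processing (probe set 17285157), was at 6.47, 6.55 and 6.74 in sleep-deprived mice and at 5.74, 6.17 and 6.35 in controls. All sleep-deprived mice were above all controls, and the difference was 0.48 ± 0.088 (limma, adjusted p = 0.00115). Nop14 (probe set 17447289) was at 6.40, 6.56 and 6.63 in sleep-deprived mice and at 5.92, 6.23 and 6.35 in controls, also apart, with 0.35 ± 0.068 (limma, adjusted p = 0.00185). The other 2 that rose were Wdr75 (0.37 ± 0.092, with sleep-deprived mouse 3 far below its group at 5.96) and Wdr43 (0.33 ± 0.076), which belong with Utp4, Utp15 and Heatr1 to the complex that joins the precursor first.

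The other 10 processome genes had differences from -0.032 (Rrp9) to 0.26 (Utp15). Noc4l, at 0.24 ± 0.075, missed the threshold narrowly (limma, adjusted p = 0.0527), although 6 of 7 sleep-deprived mice stood above the highest control. Utp15 (0.26 ± 0.097), Utp18 (0.20 ± 0.098) and Utp20 (0.14 ± 0.069) did not pass. The smallest were those of Nat10, which acetylates small subunit rRNA (0.11), Utp6 (0.067), Ddx10 (0.062), Nop9 (0.060), Utp3 (-0.022) and the box C/D-associated Rrp9. Rises above 0.3 lay outside the 95% intervals of these 6 genes, whose upper bounds went from 0.11 to 0.27.

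The 4 measured genes that act on small subunit precursors after the processome all rose, and Tsr1, the other gene listed there, was not analysed. Rrp12, an export factor in yeast (probe set 17364725), had the largest difference of all members. It was at 5.49, 5.74 and 6.07 in sleep-deprived mice and at 4.59, 5.24 and 5.32 in controls, without overlap, a difference of 0.61 ± 0.11 or 1.53-fold (limma, adjusted p = 0.000933). Control mouse 12 was far below the other controls, the next being at 5.04, and the gene passed without it too. Bysl, which helps the precursor leave the nucleolus (probe set 17345696), was at 5.42, 5.72 and 5.99 in sleep-deprived mice and at 5.11, 5.25 and 5.43 in controls. Its difference was 0.50 ± 0.089 (limma, adjusted p = 0.000894), and sleep-deprived mouse 3 alone fell within the control range. Nob1, the endonuclease that makes the last cut in small subunit rRNA (probe set 17512740), was at 6.74, 6.93 and 7.17 in sleep-deprived mice and at 6.26, 6.58 and 6.80 in controls, with 0.40 ± 0.084 (limma, adjusted p = 0.00341). The late factor Ltv1 was at medians of 6.36 in sleep-deprived mice and 6.04 in controls, with 0.28 ± 0.062 (limma, adjusted p = 0.00626).

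For the large subunit 4 of 16 measured genes rose and 0 fell. Nop16, a nucleolar protein of its precursor (probe set 17292712), had the smallest adjusted p and the smallest spread of all members, with a pooled SD of 0.065. It was at 7.18, 7.26 and 7.36 in sleep-deprived mice and at 6.70, 6.85 and 6.86 in controls, a difference of 0.45 ± 0.050 (limma, adjusted p = 7.58e-06). No mouse of either group came within 0.3 of the other group. The GTPase Gnl3, also called nucleostemin (probe set 17304493), was at 6.89, 7.29 and 7.48 in sleep-deprived mice and at 6.44, 6.78 and 6.92 in controls, with 0.50 ± 0.084 (limma, adjusted p = 0.000519). The rRNA methyltransferase Nop2 (probe set 17463108) was at 7.10, 7.27 and 7.73 in sleep-deprived mice and at 6.61, 6.82 and 7.13 in controls, with 0.51 ± 0.094 (limma, adjusted p = 0.00137). For Gnl3 and for Nop2, 6 of 7 sleep-deprived mice stood above the highest control.

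The PeBoW complex, which large subunit maturation needs, consists of the products of Bop1, Pes1 and Wdr12. Bop1 rose by 0.30 ± 0.062, without overlap between the groups (limma, adjusted p = 0.00332). Pes1 was at 0.072 ± 0.054 (adjusted p = 0.542) and Wdr12 at 0.22 ± 0.081 (adjusted p = 0.114), and neither passed. The difference between these 3 changes was not tested. Other genes that did not pass were the helicase Ddx18 (0.26 ± 0.082, limma, adjusted p = 0.0597), Noc3l (0.23), the GTPases Gnl3l (0.21) and Gnl2 (0.17), Ebna1bp2 (0.12), Rrp1 (0.094), Rrs1 (0.018), Nip7 (0.010), the helicase Ddx56 (-0.0057) and Noc2l (-0.036). A dimmer probe set of Rrs1 was at 0.20 ± 0.097, and one of Ddx18 at -0.0029 ± 0.096.

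Mice differed in how far the members moved together. The mean deviation of the 53 genes from their means over all mice ran from 0.011 to 0.18 in sleep-deprived mice (median 0.092) and from -0.19 to -0.033 in controls (median -0.10). The groups did not overlap in it, nor in the mean of the 18 called members, which were picked by the same contrast. In the mean of the members not called they did overlap, at -0.0034 to 0.10 in sleep-deprived mice and -0.097 to 0.048 in controls. The same mean over all genes stayed within -0.0083 to 0.0017 in sleep-deprived mice and -0.010 to 0.018 in controls. Processing equalized the distributions of the arrays and so keeps that mean near 0 in any case, which makes it no independent contrast. Mouse 3 was the lowest of the sleep-deprived group, with a mean of 0.011, and had the lowest level of its group in 26 of the 53 genes. Its high Myc level enters that mean, which was -0.013 over the other 52 members. Mice 13 and 2 had the highest means, 0.18 and 0.16. Among controls, mouse 4 was lowest in the mean and had the lowest level of its group in 17 genes, and mouse 7 had the highest mean. Without mouse 3, 21 members rose, as many as without control mouse 7. Leaving out control mouse 4 gave 17, as did leaving out control mouse 12 or sleep-deprived mouse 13. Over all genes, fewer rose without mouse 3 and without mouse 4 than with all mice.

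**Figure D4:**
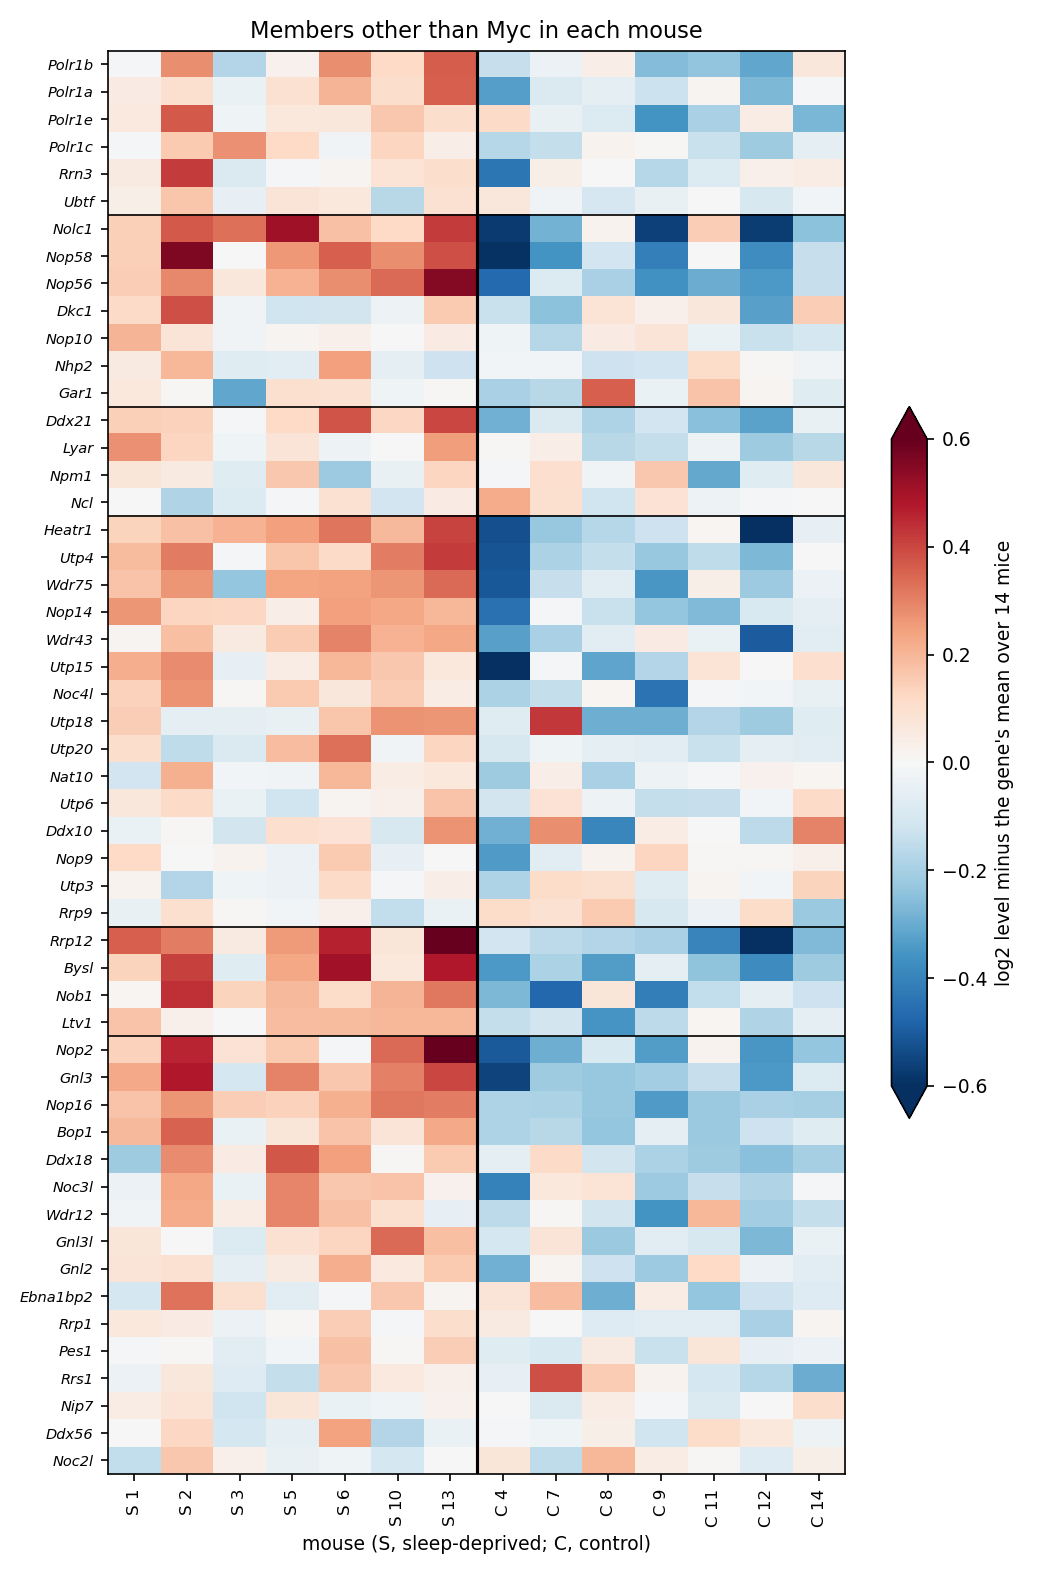
Log2 level of the 52 members other than Myc in each mouse, minus the mean of the gene over 14 mice, with sleep-deprived mice (S) left of controls (C) and lines between the processing steps. Genes that rose are red across most of the left columns, with sleep-deprived mouse 3 paler than the others, and controls 4 and 12 are the deepest blue.

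Other genes of the same pathway were listed from textbook knowledge, but with earlier results of these data known. Their share is therefore no independent support for that of the members. Of 86 measured, 15 rose and 0 fell (17.4% higher), and the median difference was 0.11. Of all genes 3.88% rose, and 7.33% of those brighter than the median gene, to which 83 of the 86 belong. The 4 with the smallest adjusted p were Nol8 (0.52 ± 0.079), the helicase Ddx27 (0.45 ± 0.075), the rRNA methyltransferase Ftsj3 (0.38 ± 0.075) and Abt1 (0.37 ± 0.074). The nucleolar protein Nol8 was at 6.51 ± 0.12 in sleep-deprived mice and 5.99 ± 0.18 in controls (SD, n = 7 each). Ddx27 was at 6.29 ± 0.13 in sleep-deprived mice and 5.84 ± 0.15 in controls, and as with Nol8 the groups did not overlap. Ftsj3 was at 7.53 ± 0.17 in sleep-deprived mice and 7.14 ± 0.13 in controls, and Abt1 at 6.31 ± 0.17 in sleep-deprived mice and 5.94 ± 0.10 in controls, both with overlap. Further genes of RNA polymerase I transcription had 2 of 15 higher and 0 lower, Top1, the topoisomerase that relaxes transcribed DNA (0.42 ± 0.075), and Mybbp1a (0.24 ± 0.067), which no longer passed in 5 of the 14 leave-one-out fits. In the RNA exosome, which trims rRNA precursors, 2 of 12 rose, the nuclease Dis3 (0.29 ± 0.069) and Exosc1 (0.20 ± 0.054), of which Exosc1 no longer passed in 4 of those fits.

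Few transcripts of cytosolic ribosomal proteins and of the other polymerases passed. Of 58 measured genes of cytosolic ribosomal proteins 0 passed in limma, with 4 higher and 0 lower at an unadjusted p under 0.05, and the median difference was 0.020. RNA polymerase III and its factors had 1 of 19 higher and 0 lower, the factor gene Gtf3c1 (0.19 ± 0.048), with a median of 0.014. Without adjustment 3 of the 19 were higher and 4 lower at p under 0.05, where 8.97% and 10.4% of all genes were. Of 7 subunits of RNA polymerase II 0 passed, also without adjustment, with a median of 0.026. Whether these groups differ from the members was not tested.

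**Figure D5:**
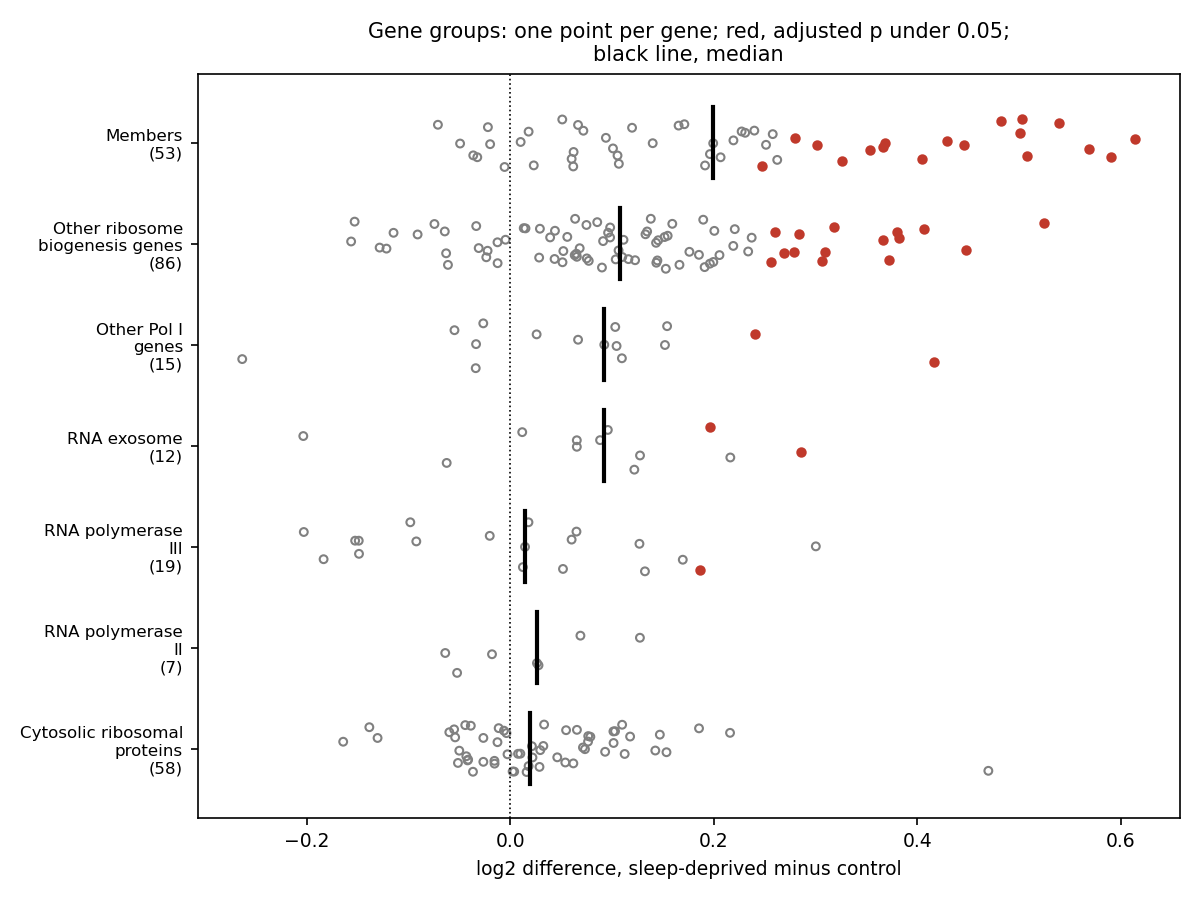
Log2 difference (sleep-deprived minus control) of each gene in 7 gene groups, with the number of genes measured, red for an adjusted p under 0.05 and a black line at the median. The medians are 0.20 for the members, 0.11 for other ribosome biogenesis genes and 0.020 for cytosolic ribosomal proteins.

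Genes around MYC and mTORC1, the upstream growth signals, were read from the same fit. In the MYC network 3 of 18 rose and 0 fell (16.7% higher, where 3.88% of all genes were). Of those brighter than the median gene, to which 16 of the 18 belong, 7.33% rose. Max, the DNA-binding partner of MYC, was at 6.77 ± 0.089 in sleep-deprived mice and 6.39 ± 0.12 in controls (SD, n = 7 each), a difference of 0.38 ± 0.063. Odc1, a well-known MYC target that makes polyamines, was at 7.45 ± 0.090 in sleep-deprived mice and 7.03 ± 0.051 in controls, with 0.42 ± 0.051 (limma, adjusted p = 1.96e-05). Nme1 differed by 0.27 ± 0.080, and no longer passed in 9 of the leave-one-out fits. In mTORC1 signalling 1 of 19 genes rose and 0 fell (5.26% higher). This lay between the 3.88% of all genes and the 7.33% of the brighter ones, to which 18 of the 19 belong. Without adjustment 3 were higher and 3 lower at p under 0.05, and 12 of the 19 differences were below 0. The gene that rose was Ddit4, an inhibitor of mTORC1, at 6.93 ± 0.48 in sleep-deprived mice and 4.83 ± 0.39 in controls. It differed by 2.10 ± 0.19 (limma, adjusted p = 8.03e-07). These are transcript levels and do not measure the activity of either signal.

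Markers of some liver cell types rose as well. Of 8 endothelial markers 3 rose, Lyve1 by 1.13 ± 0.18, Oit3 by 0.46 ± 0.094 and Pecam1 by 0.29 ± 0.080. In the other direction, 1 of the 8 was lower at an unadjusted p under 0.05 (-0.18), and the median difference of the 8 was 0.14. The sum of the 8 log2 levels was 59.3 to 62.8 in sleep-deprived mice and 57.6 to 60.3 in controls. Of 8 hepatocyte markers 3 rose, Tat by 0.41, Apoa1 by 0.12 and Cps1 by 0.11, and 2 of the 8 had differences below 0. Their sums were 94.97 to 95.8 in sleep-deprived mice and 94.1 to 95.2 in controls. One of 8 stellate markers (Rgs5, 0.30) and 1 of 5 bile duct markers (Sox9, 0.56) rose, with sums of 51.2 to 54.9 and 18.5 to 20.9 in sleep-deprived mice and of 51.1 to 54.2 and 18.4 to 19.2 in controls. The part of these markers in the rises of the members was not tested. Of 8 macrophage markers 0 passed, with sums of 47.7 to 53.8 in sleep-deprived mice and 47.0 to 57.2 in controls, and of 9 lymphocyte and neutrophil markers 1, Cd79a, fell (-0.38 ± 0.091), with sums of 26.5 to 27.8 in sleep-deprived mice and 26.9 to 28.3 in controls. Of 9 cell cycle genes 0 passed, also without adjustment, with sums of 34.0 to 34.8 in sleep-deprived mice and 33.2 to 35.0 in controls. Of 6 red cell markers 1 was measured and did not pass. Values summarized by RMA have no true 0, so no marker can be called absent.

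Promoters of the members were searched for 2 sets of letters, because many of these genes moved together. The E-box CACGTG, a palindrome that MYC and the clock activators bind, and CCGGAAG, read on both strands, which proteins of the ETS family bind, do not overlap each other. A RefSeq window from 250 bases before to 50 after the start site (build GRCm38.p6) was matched by symbol for 45 of the 53 genes. CACGTG occurred in 8 of the 45 (17.8%), in 4 of the 16 matched genes that rose (25.0%), in 4 of the 29 that did not pass (13.8%) and in 9.19% of 16990 measured genes with such a window. CCGGAAG occurred in 17 of the 45 (37.8%), in 5 of the 16 that rose (31.2%), in 12 of the 29 that did not pass (41.4%) and in 12.7% of the 16990. The E-boxes of the 4 genes that rose and of Rrn3 and Utp18, which did not pass, are given below with 12 bases on each side, 5′ to 3′ on the strand of the gene, with the E-box in capitals.
Nop2, chr6:125131811-125131840, plus strand: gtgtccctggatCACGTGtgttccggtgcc
Utp4, chr8:106893643-106893672, plus strand: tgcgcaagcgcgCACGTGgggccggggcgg
Wdr43, chr17:71616220-71616249, plus strand: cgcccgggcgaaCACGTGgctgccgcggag
Ltv1, chr10:13193092-13193121, minus strand: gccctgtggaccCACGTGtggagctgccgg
Rrn3, chr16:13780639-13780668, plus strand: ttacgctctgctCACGTGggccgcgtcccg
Utp18, chr11:93885769-93885798, minus strand: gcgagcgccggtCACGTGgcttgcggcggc

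Counted from the start site, with negative positions before it, the first base of the E-box was at -60 in Nop2, -48 in Rrn3, -20 in Utp18, 16 in Utp4, 18 in Wdr43 and 29 in Ltv1. Rrn3 held another at -215, and Pes1 and Utp20, which did not pass, held 1 each. Nop2, which rose by 0.51, and Utp18 and Rrn3, which did not pass, held both sets of letters with the first base upstream of the start site. The 100 bases before the start site of Nop2 (chr6:125131783-125131882, plus strand, GRCm38.p6) are shown as an example of the spacing of the pair, with each in capitals.
Nop2: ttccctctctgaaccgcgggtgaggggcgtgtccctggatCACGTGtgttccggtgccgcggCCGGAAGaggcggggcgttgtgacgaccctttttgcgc
These letters are matches in a sequence and do not show that a factor was bound. Nop56, Nop58 and Nop16, with the smallest adjusted p of the members, held neither in their windows.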

How the data were processed

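Liver RNA of 14 mice was measured on Affymetrix whole-transcript arrays labelled with the WT PLUS kit, as the labels' protocols say. The authors deposited 1 table of log2 levels per probe set, produced by RMA (the submitters' processing notes name it, with no version), a method that corrects background, equalizes the arrays' distributions and summarizes probes. The annotation and build that went into it were not given in the sources used here. RMA compresses differences of dim genes, and the number of arrays, 7 per group, limits the precision.

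Of 41345 probe sets, 23521 had 1 gene symbol in the platform's annotation (23328 matched to RefSeq by ID, with 0 symbols differing), 1814 had several and 16010 were unnamed here. The brightest per gene left 22180 genes, with no filter. Groups came from the sample titles, whose numbers are not shared between groups. Sleep-deprived minus control was fitted in limma 3.58.1 (R 4.3.3, lmFit, eBayes with intensity trend, two-sided) with Benjamini-Hochberg adjustment over all genes. On simulated data the fit recovered 50 of 100 genes changed by a log2 difference of 0.3 and 87 of 100 changed by 0.5. It also called 7 unchanged genes. Many true differences of 0.3 or less would therefore not pass.

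Members and lists were chosen with earlier results of these data known. Values per mouse are given for the 3 members of each step with the smallest adjusted p and for Myc, Polr1a, Ubtf and Rrn3. Other lists name up to 4 genes past the threshold, and marker lists all. Further members and the promoter letters were chosen after values were seen. Alternatives were other variance moderation, array weights, brighter genes only, averaged or separate probe sets, median centring, repeated quantile normalization, the sample number as a covariate, a minimum log2 difference of 0.5 and the omission of each mouse in turn. With separate probe sets, the one with the smallest p stood for its gene.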

Additional observations from a re-analysis of the deposited data

Results flagged for a closer look

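In 7 of the 132 groups of 7 mice examined (66 named genes in each of the groups), the highest or lowest mouse lay far from the next mouse for the range of its group (Dixon, 95% level), which chance gives in about 5% of groups. Sleep-deprived mouse 3 was the low extreme in Wdr75 (log2 level 5.96, next mouse 6.36) and Gar1 (4.89, next 5.18), and sleep-deprived mouse 2 the high extreme in Rrn3 (7.30, next 6.98). Among controls, mouse 12 was low in Rrp12 (4.59, next 5.04), mouse 4 in Nop9 (5.94, next 6.21) and mouse 9 in Nop16 (6.70, next 6.82), while mouse 7 was high in Utp18 (6.27, next 5.77).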

How the results depend on the processing

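No paired analysis was possible because the groups share no sample number. The count of members that rose, 18, was 17 to 23 under the other fits, scalings and probe set rules and 17 to 21 when 1 mouse was left out, and 0 fell in each. The number of all genes that rose changed with the setting too. Like the member count, it was highest with brighter genes only, where fewer genes were tested. It fell below 861 when any mouse but sleep-deprived mouse 6 was left out. With a log2 difference of at least 0.5 also required the count of members that rose was 7, and over all genes 186 rose and 205 fell instead of 861 and 1025. Of the 18, 16 passed under each alternative without that size limit, while Nop56 (probe sets averaged) and Polr1a (4 of the 14 omissions) did not, and 7 other members passed in at least 1. The alternative with separate probe sets took the smallest p of each gene and so could hardly remove a call. Signs changed only in genes that did not pass, and the cause was not tested. With the sample number as a covariate Gar1 was at 0.0069, Utp3 at 0.020 and Rrs1 at -0.024. Npm1 was at -0.011 with probe sets averaged and -0.045 in its dimmer probe set, Ddx56 at 0.0056 after median centring and Myc at 0.0077 with array weights. Omitting 1 mouse gave -0.36 to 0.14 for Myc, -0.054 to 0.038 for Gar1, -0.027 to 0.061 for Npm1, -0.055 to 0.0055 for Utp3, -0.030 to 0.084 for Rrs1, -0.0038 to 0.031 for Nip7 and -0.046 to 0.023 for Ddx56. Signal over background could not be read from values summarized by RMA.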
